A study of Mus musculus with 6 samples.

Results

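The endothelial marker genes were 10 genes that mark the cells lining blood vessels (Pecam1, Cdh5, Kdr, Flt1, Tek, Tie1, Esam, Emcn, Cldn5 and Egfl7), chosen by gene symbol from 35122 genes listed in the count table. All 10 passed edgeR's filter on low counts, which left 13925 genes to test. RNA came from the adipocyte fraction of epididymal fat, the layer that floats after collagenase digestion, in 3 control and 3 aPU.1KO male mice, with 1 library per mouse. All mice were C57BL/6 and carried PU.1 fl/fl alleles, in which exon 5 of Spi1, the gene of the transcription factor PU.1, is flanked by loxP sites, and aPU.1KO mice also carried AdipoqCre, a Cre recombinase driven by the adiponectin promoter and so aimed at adipocytes rather than at vessel cells. The labels gave an age of 10 to 11 months, whereas the study's text put these mice above a year. The comparison here asked whether RNA of vessel-lining cells in the adipocyte fraction differed between the genotypes.

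Endothelial cells form the inner wall of vessels, and fat is a tissue in which nearly every adipocyte touches a capillary. They sense vascular endothelial growth factor (VEGF), much of which adipocytes secrete, through receptor tyrosine kinases, and sense angiopoietins through the Tie receptors, while adherens and tight junction proteins hold neighbouring cells together. Endothelial cells lack the large lipid droplet that makes adipocytes float.

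All 10 genes were readily measured in every library, from 125 counts of Emcn in aPU.1KO mouse 1 to 14092 counts of Cdh5 in control mouse 1. Each had a lower mean in the aPU.1KO mice, by 0.20 to 0.61 on the log2 scale, but none passed edgeR's test at an adjusted p under 0.05, and the values of the groups overlapped for all 10. The aPU.1KO mice stood apart from one another: mouse 1 was the lowest of the 6 libraries for all 10 genes, mouse 3 was below every control mouse for all 10, and mouse 2 was at or near the control level. Because these are whole-fraction RNA samples, fewer endothelial cells and less of these RNAs per cell cannot be told apart.

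Total counts ran from 20550252 to 69283842, with control mouse 1 far deeper than the other 5 libraries, and no libraries of a group were duplicates. The groups' p-values measure the spread between these mice, 1 library each. Spi1 itself was at 24.3, 6.35 and 26.7 CPM (counts scaled to a common library size, by TMM) in control mice 1, 2 and 3 and at 3.20, 1.22 and 4.17 CPM in aPU.1KO mice 1, 2 and 3, and differed by -2.75 on the log2 scale (standard error, SE, 0.64, adjusted p = 0.0788 in edgeR and 7.65e-05 in DESeq2), and per-gene counts check the deletion of 1 exon only in part. The study's text proposes that macrophages, which express PU.1, might contaminate the adipocyte fraction. A sum of 12 macrophage genes was 1501, 485.4 and 1442 CPM in control mice 1, 2 and 3, with mouse 2 the lowest as for Spi1. It was 336.4, 257.2 and 321.4 CPM in aPU.1KO mice 1, 2 and 3, and the part of macrophages in the Spi1 values was not tested. Over all 13925 genes, edgeR called 33, which is 0.237% of those tested, 0.180% in the lower direction.

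PU.1 belongs to the ETS family, whose members Erg, Fli1 and Ets1 also act in endothelial cells and whose shared core motif reads GGAA. To show what the start-site sequence of such genes looks like, the 250 bases before the start of 2 growth factor receptor genes and 1 junction gene are printed from RefSeq (GRCm38.p6) in the direction of the gene. They are the members' RefSeq windows in which GENCODE M21 annotated no exon. The RefSeq gene models of Tek and Flt1 also extend upstream of these starts, so the windows do not lie before every RefSeq start of those genes. A window was held for 7 of the 10 genes, and none for Pecam1, Cdh5 or Esam. Capitals mark GGAA, or TTCC where it lies on the other strand. The windows were Tek at chr4:94739039-94739288 on the + strand, Flt1 at chr5:147726012-147726261 on the - strand and Cldn5 at chr16:18776597-18776846 on the + strand.
Tek: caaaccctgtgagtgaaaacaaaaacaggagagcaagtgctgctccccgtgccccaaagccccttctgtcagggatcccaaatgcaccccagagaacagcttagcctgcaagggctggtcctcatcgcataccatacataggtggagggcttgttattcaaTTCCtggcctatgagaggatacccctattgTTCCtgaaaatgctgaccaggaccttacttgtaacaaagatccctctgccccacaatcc
Flt1: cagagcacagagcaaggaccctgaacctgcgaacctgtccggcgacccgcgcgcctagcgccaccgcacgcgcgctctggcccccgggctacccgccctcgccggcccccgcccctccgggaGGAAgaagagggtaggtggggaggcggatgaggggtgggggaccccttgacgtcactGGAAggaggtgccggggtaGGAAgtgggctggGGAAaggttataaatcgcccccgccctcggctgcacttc
Cldn5: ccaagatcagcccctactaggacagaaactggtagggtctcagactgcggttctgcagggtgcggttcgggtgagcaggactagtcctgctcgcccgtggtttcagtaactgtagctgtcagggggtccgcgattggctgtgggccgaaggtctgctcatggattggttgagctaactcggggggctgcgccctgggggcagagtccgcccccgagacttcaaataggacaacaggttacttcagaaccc
The Flt1 window held 4 matches to GGAA, the Tek window 2 and the Cldn5 window 0, counting both strands. The longer form AGGAAG, which contains GGAA, matched 2 times in the Flt1 window and in neither of the other two. GGAA stood in 93.4% of the 32851 RefSeq windows of that length, with a median of 3 matches, and AGGAAG in 29.5%, so that a match here is a description of the letters and no sign of binding.

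The VEGF receptors come first. Kdr (VEGFR2, the main signalling receptor for VEGF; chromosome 5, 75932827 to 75978458, GRCm38) was at 138.9, 181.9 and 111.4 CPM in control mice 1, 2 and 3 and at 74.6, 192.7 and 109.0 CPM in aPU.1KO mice 1, 2 and 3. The highest of the 6 values was that of aPU.1KO mouse 2 and the lowest that of aPU.1KO mouse 1, and the log2 fold change was the smallest of the 10 genes at -0.20 (SE 0.35, adjusted p = 0.751 in edgeR). Flt1 (VEGFR1, which binds VEGF tightly and also acts as a decoy; chromosome 5, 147561604 to 147726011) was at 102.1, 120.7 and 78.6 CPM in the control mice and at 43.9, 103.6 and 74.6 CPM in the aPU.1KO mice. Here aPU.1KO mouse 2 lay between control mice 1 and 2, and the log2 fold change was -0.44 (SE 0.31, adjusted p = 0.407 in edgeR).

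**Figure D1:**
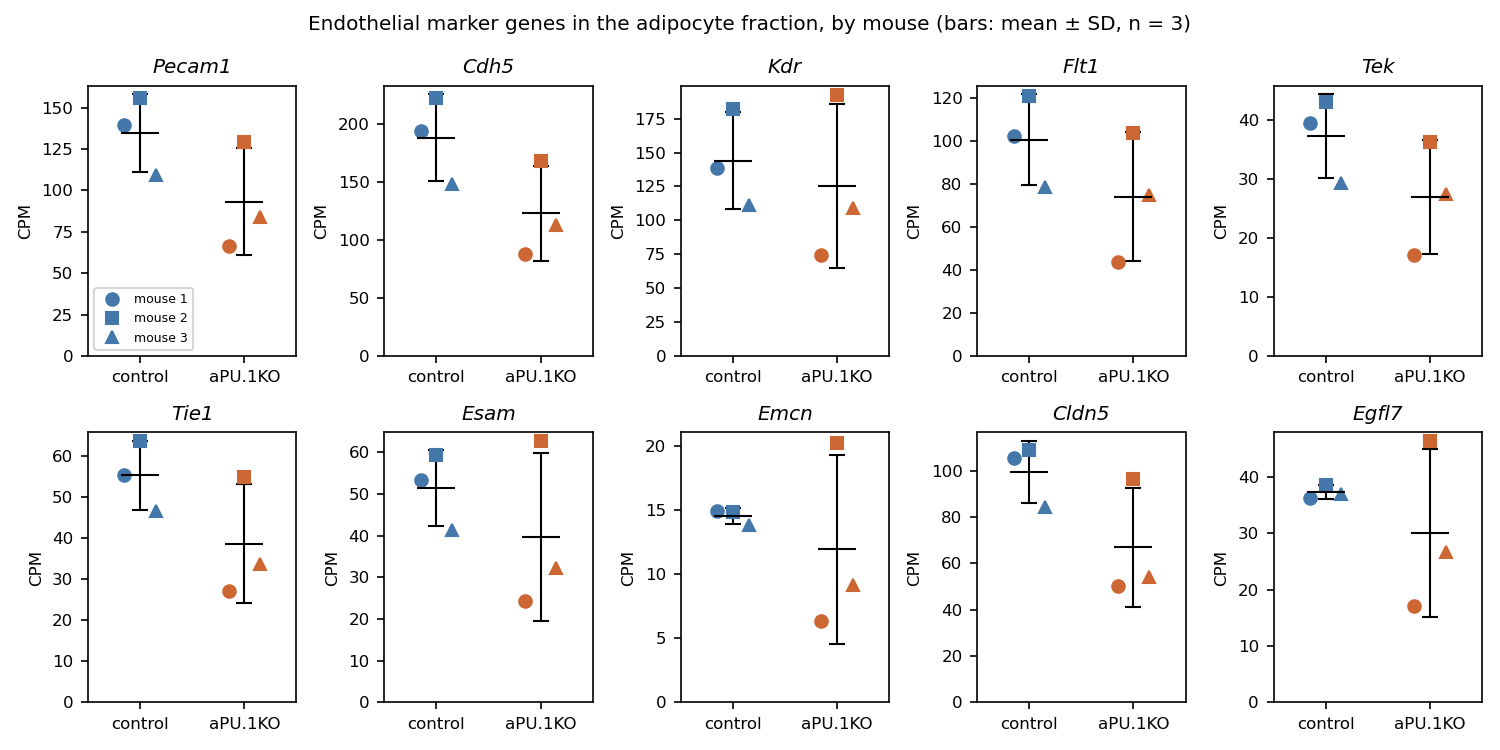
CPM of each of the 10 endothelial marker genes in the 3 control mice (blue) and 3 aPU.1KO mice (orange), with symbols for mice 1 to 3 of each group and bars for mean ± SD. The groups overlap in every panel, with aPU.1KO mouse 1 (circle) lowest of the 6 throughout.

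Of the Tie receptors, Tek (Tie2, the angiopoietin receptor; chromosome 4, 94739289 to 94874976) was at 39.6, 43.0 and 29.4 CPM in the control mice and at 17.1, 36.3 and 27.5 CPM in the aPU.1KO mice. Its log2 fold change was -0.47 (SE 0.28, adjusted p = 0.331 in edgeR). Tie1 (an orphan receptor that pairs with Tie2; chromosome 4, 118471191 to 118490061) was at 55.5, 63.6 and 46.7 CPM in the control mice and at 27.2, 55.0 and 33.7 CPM in the aPU.1KO mice. The log2 fold change of Tie1 was -0.51 (SE 0.26, adjusted p = 0.262 in edgeR), and for both Tie genes only aPU.1KO mouse 2 reached into the control range.

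Of the 4 junction genes, 3 had the largest differences of the 10 members and Esam a smaller one. Cdh5 (VE-cadherin, the adhesion molecule of endothelial adherens junctions; chromosome 8, 104101625 to 104144511) was at 194.1, 221.9 and 147.9 CPM in the control mice and at 88.0, 167.7 and 112.4 CPM in the aPU.1KO mice. It had the largest difference of the 10 genes, with a log2 fold change of -0.61 (SE 0.26) and an unadjusted p of 0.0478 that became 0.191 after edgeR's adjustment over all genes. Cdh5 was the only member with an unadjusted p under 0.05 in edgeR, where 13.7% of all genes tested were lower at that level.

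Cldn5 (claudin-5, a tight junction protein; chromosome 16, 18776847 to 18778262) was at 105.8, 108.8 and 84.4 CPM in the control mice and at 50.4, 96.6 and 54.2 CPM in the aPU.1KO mice, with a log2 fold change of -0.57 (SE 0.26, adjusted p = 0.218 in edgeR). Pecam1 (CD31, which joins endothelial cells at their borders; chromosome 11, 106654217 to 106750628) was at 139.3, 155.5 and 109.3 CPM in the control mice and at 66.6, 129.0 and 83.7 CPM in the aPU.1KO mice. In both genes aPU.1KO mice 1 and 3 lay below all controls and mouse 2 lay above control mouse 3, and the log2 fold change of Pecam1 was -0.53 (SE 0.25, adjusted p = 0.238 in edgeR). Esam (an immunoglobulin-family adhesion molecule; chromosome 9, 37528078 to 37538319) was at 53.5, 59.3 and 41.4 CPM in the control mice and at 24.3, 62.6 and 32.3 CPM in the aPU.1KO mice. In contrast to the other junction genes, Esam was highest of all in aPU.1KO mouse 2, and its log2 fold change was -0.37 (SE 0.34, adjusted p = 0.531 in edgeR).

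The last pair are a surface mucin and a secreted protein. Emcn (endomucin, a sialomucin of capillary and venous endothelium; chromosome 3, 137341067 to 137432185) was at 14.9, 14.9 and 13.9 CPM in the control mice and at 6.35, 20.3 and 9.19 CPM in the aPU.1KO mice. Egfl7 (a secreted factor whose gene hosts miR-126; chromosome 2, 26580014 to 26593120) was at 36.2, 38.6 and 37.0 CPM in the control mice and at 17.1, 46.3 and 26.7 CPM in the aPU.1KO mice. The control mice were closest together for these genes, with coefficients of variation of 4.10% for Emcn and 3.26% for Egfl7, against 61.7% and 49.6% in the aPU.1KO mice. Their log2 fold changes were -0.28 (SE 0.39) and -0.31 (SE 0.32), with adjusted p = 0.681 and 0.582 in edgeR. Exons of Egfl7 overlap those of Gm20532 by 264 bases on the same strand and those of Agpat2 by 64 bases on the other, so part of its count could belong to either, whereas the other 9 genes share no exon with a neighbour in GENCODE M21.

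Between genes, levels can be set side by side only per length of exon. In the control mice the means were 70.4 ± 9.42 CPM per kilobase of exon (SD, n = 3) for Cldn5, 44.7 ± 8.90 for Cdh5, 21.6 ± 3.77 for Pecam1, 17.9 ± 3.18 for Esam, 16.0 ± 3.93 for Kdr, 11.2 ± 1.73 for Tie1, 10.4 ± 0.339 for Egfl7, 7.92 ± 1.51 for Tek, 7.44 ± 1.56 for Flt1 and 2.69 ± 0.110 for Emcn. Junction genes thus stood at the top and the receptors below them. Neighbours from Pecam1 to Kdr, from Tie1 to Egfl7 and from Tek to Flt1 differed by less than the larger SD of the pair, and these lengths take the union of all annotated exons, whichever transcripts the tissue uses.

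The pattern shared by the 10 genes lay between mice. Relative to each gene's control mean, the median of the 10 genes was 102.9%, 115.3% and 80.8% in control mice 1, 2 and 3 and 47.1%, 101.3% and 63.0% in aPU.1KO mice 1, 2 and 3. Within the aPU.1KO group all 10 genes kept the order of mouse 1 lowest, mouse 3 next and mouse 2 highest. In aPU.1KO mouse 1 the 10 genes were close together, from 43.6% to 51.8% of their control means, while in aPU.1KO mouse 2 they ran from 89.2% for Cdh5 to 139.3% for Emcn. Mouse 2 exceeded all 3 controls for 4 genes (Kdr, Esam, Emcn and Egfl7), and control mouse 2 was the highest of the 6 libraries for the other 6. The coefficient of variation was larger among the aPU.1KO mice than among the controls for all 10 genes.

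**Figure D2:**
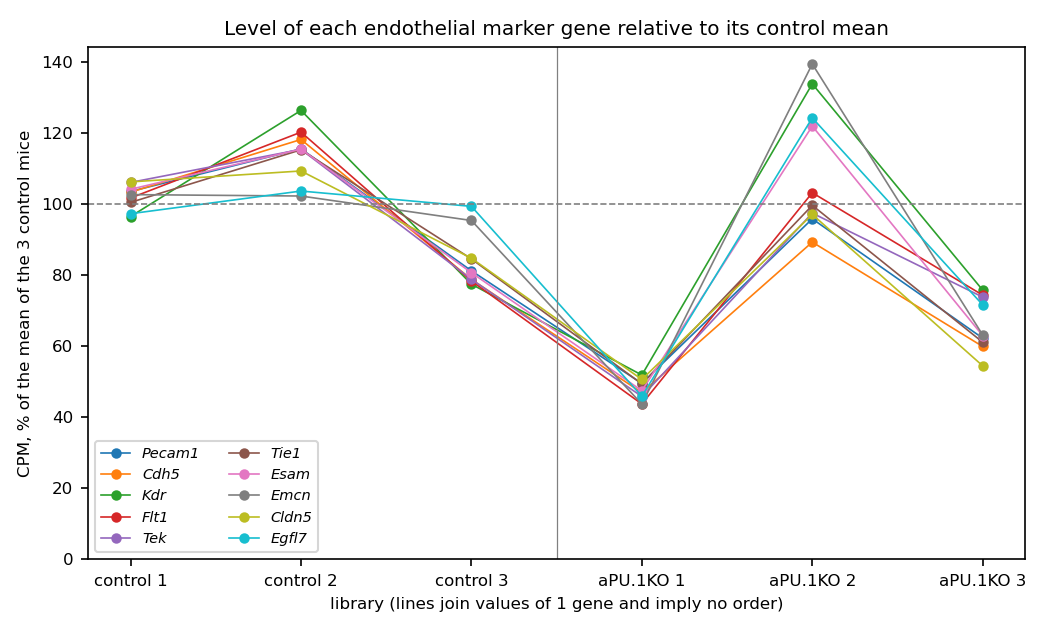
Level of each of the 10 genes in each library as a percent of its mean over the 3 control mice (dashed line at 100%). All 10 genes are near 50% in aPU.1KO mouse 1, with a median of 101.3% in mouse 2 and 63.0% in mouse 3.

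Of the 45 ratios between pairs of members, 2 did not overlap between the groups. The ratio of Cdh5 to Kdr in CPM was 1.40, 1.22 and 1.33 in the control mice and 1.18, 0.870 and 1.03 in the aPU.1KO mice. The ratio of Pecam1 to Cdh5 was 0.718, 0.701 and 0.739 in the control mice and 0.756, 0.769 and 0.745 in the aPU.1KO mice, a separation in order but small in size. These ratios share genes and were not tested.

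Against the whole transcriptome, the median log2 fold change of the 10 members was -0.45, beside 0.014 over all genes tested. All 10 had a value below 0, as did 48.0% of all genes, and since the members moved together across mice they do not count as 10 separate observations. None of the 10 were called by DESeq2 either, with adjusted p from 0.101 for Cdh5 to 0.769 for Kdr, where 8.46% of the genes were called lower and 3.97% higher, and 3 of the 10 had an unadjusted p under 0.05 in DESeq2, beside 10.9% of the genes it tested that were lower at that level. For 0 of 10 did the groups separate, beside 15.5% of all genes with every aPU.1KO value below every control value.

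The comparison rested on aPU.1KO mouse 2 and, in the other direction, on aPU.1KO mouse 1. Without aPU.1KO mouse 2, the groups no longer overlapped for any of the 10 genes, beside 22.1% of all genes then lower without overlap, and the log2 fold changes lay between -0.93 and -0.65. All 10 then had an unadjusted p under 0.05, beside 14.9% of all genes lower at that level, but adjusted p from edgeR stayed between 0.0816 and 0.186. Without aPU.1KO mouse 1, the median over the members was -0.21 and Kdr and Emcn changed sign, to 0.056 and 0.0060. Without control mouse 3, 5 of the 10 genes did not overlap, beside 20.0% of all genes. Without control mouse 2 edgeR called 8.34% of all genes tested, but none of the 10 members. No member was called with any mouse left out or under any other setting tried, and no label gives a reason to leave out a mouse.

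**Figure D3:**
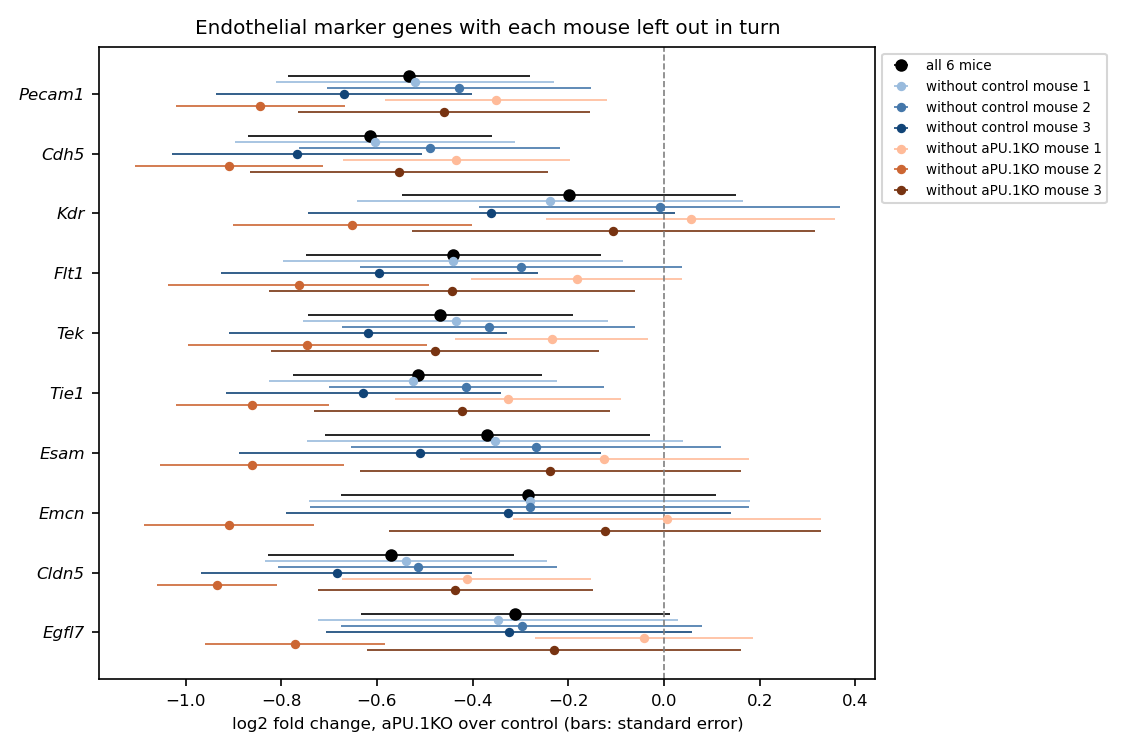
Log2 fold change (aPU.1KO over control) of each gene from edgeR with all 6 mice (black) and with each mouse left out in turn (colours), with bars for the standard error. Leaving out aPU.1KO mouse 2 gives values from -0.93 to -0.65, and leaving out aPU.1KO mouse 1 brings Kdr and Emcn to 0.056 and 0.0060.

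Other RNAs differed between the same libraries. Summed over the 10 members, the level was 879.8, 1008 and 699.9 CPM in the control mice and 415.5, 910.0 and 563.5 CPM in the aPU.1KO mice. The sum of 12 adipocyte genes was lower in every control mouse, from 37106 to 42464 CPM, than in every aPU.1KO mouse, from 45107 to 52202 CPM. Lpl, the gene of lipoprotein lipase, alone gave 14955 to 18834 CPM of that sum in the control mice and 19936 to 22517 CPM in the aPU.1KO mice. Of the 12 genes, 9 were higher without overlap, beside 16.7% of all genes, while Lep, which encodes the hormone leptin, was lower without overlap, at -0.77 on the log2 scale (adjusted p = 0.188 in edgeR). None of the 12 were called by edgeR, at an unadjusted p under 0.05 it had 8 higher, beside 11.9% of all genes, and 1 lower, beside 13.7%, and DESeq2 called 8 higher, beside 3.97%. As a percent of the adipocyte sum, the endothelial sum was 2.37%, 2.37% and 1.88% in the control mice and 0.885%, 1.74% and 1.25% in the aPU.1KO mice, which do not overlap. That ratio holds a difference in its denominator as well, and it was not tested. Of 5 such ratios it was the only one without overlap. As a percent of the mural sum, the endothelial sum was 63.3% to 73.1% in the control mice and 39.6% to 89.3% in the aPU.1KO mice, and against the macrophage, progenitor and erythroid sums the groups overlapped too. Much of the mural sum came from Mcam and Acta2, whose values are given below, and a ratio without them was not taken.

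Erythroid genes, which report blood, were lowest in aPU.1KO mouse 1 and highest in aPU.1KO mouse 2, the order of the endothelial genes in that group. Among the controls the order was reversed: the erythroid sum was 619.4, 586.5 and 785.6 CPM in mice 1, 2 and 3. The endothelial sum was highest in control mouse 2 and lowest in control mouse 3. The sum of 5 erythroid genes ran from 586.5 to 785.6 CPM in the control mice and from 351.7 to 1144 CPM in the aPU.1KO mice, with 0 of 5 genes called and 0 at an unadjusted p under 0.05 in edgeR or called by DESeq2. The sum of 12 macrophage genes ran from 485.4 to 1501 CPM in the control mice and from 257.2 to 336.4 CPM in the aPU.1KO mice, with 10 of 12 genes lower without overlap, beside 15.5% of all genes. DESeq2 called 10 of the 12 lower, beside 8.46% of all genes, and edgeR called Mrc1, a scavenger receptor (adjusted p = 0.0389 in edgeR, and 0.0781 to 0.184 with any mouse but control mouse 2 left out). Cd163 and Mertk were the exceptions, at 0.29 and 0.056 on the log2 scale and with overlap. Control mouse 2 was the lowest control for the macrophage sum and for the other 10 genes of that list, and the highest control for Cd163, Mertk and the endothelial sum. The 10 progenitor and fibroblast genes summed to 1466 to 1971 CPM in the control mice and to 799.0 to 1108 CPM in the aPU.1KO mice, with 7 of 10 lower without overlap, beside 15.5% of all genes. DESeq2 called 6 of them lower, beside 8.46%, and edgeR called 0, with 6 lower at an unadjusted p under 0.05, beside 13.7%. The part of blood, macrophages and progenitors in the endothelial values was not tested.

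Lymphatic, mesothelial, platelet, lymphocyte and liver genes each summed to less than the 10 endothelial members in every library. Prox1, which defines lymphatic endothelium, was at or below 0.24 CPM in every library, and 4 of 7 lymphatic genes were too low to test. The lymphatic sum ran from 15.3 to 24.7 CPM in the control mice and from 8.49 to 16.4 CPM in the aPU.1KO mice, and Flt4, Lyve1 and Pdpn gave most of it. Flt4, the gene of VEGFR3, was at 10.5, 13.5 and 9.0 CPM in the control mice and at 4.52, 8.27 and 5.92 CPM in the aPU.1KO mice, lower without overlap, while Lyve1 reached 6.79 CPM and Pdpn 5.08 CPM. The sum of 8 mesothelial genes ran from 4.88 to 19.4 CPM over the control mice and from 6.86 to 8.90 CPM over the aPU.1KO mice. The sum of 8 platelet genes, a list that matters because platelets carry Pecam1, ran from 10.7 to 21.0 CPM in the control mice and from 7.12 to 9.04 CPM in the aPU.1KO mice, with Gp9 and Gp6 near 0. Pf4 alone gave 18.6, 8.49 and 17.2 CPM of that sum in the control mice and 4.62, 6.55 and 7.29 CPM in the aPU.1KO mice, lower without overlap and with control mouse 2 the lowest control. The sum of 9 lymphocyte genes was at or below 6.90 CPM in every library. A list of 10 liver genes, such as Alb, the gene of serum albumin, summed to 43.5 to 67.1 CPM in the control mice and 19.0 to 25.0 CPM in the aPU.1KO mice, and all 10 were lower without overlap, beside 15.5% of all genes, and called by DESeq2, beside 8.46%. By edgeR, Apoa1, Ttr and Fgg, which encode secreted plasma proteins, were called (adjusted p = 0.0268, 0.0448 and 0.0457 in edgeR), with adjusted p of up to 0.145, 0.275 and 0.313 when a mouse was left out. Apoa1 had 257, 100 and 85 counts in the control mice and 0, 3 and 2 counts in the aPU.1KO mice, and Ttr and Fgg had at most 2 counts in any aPU.1KO library.

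**Figure D4:**
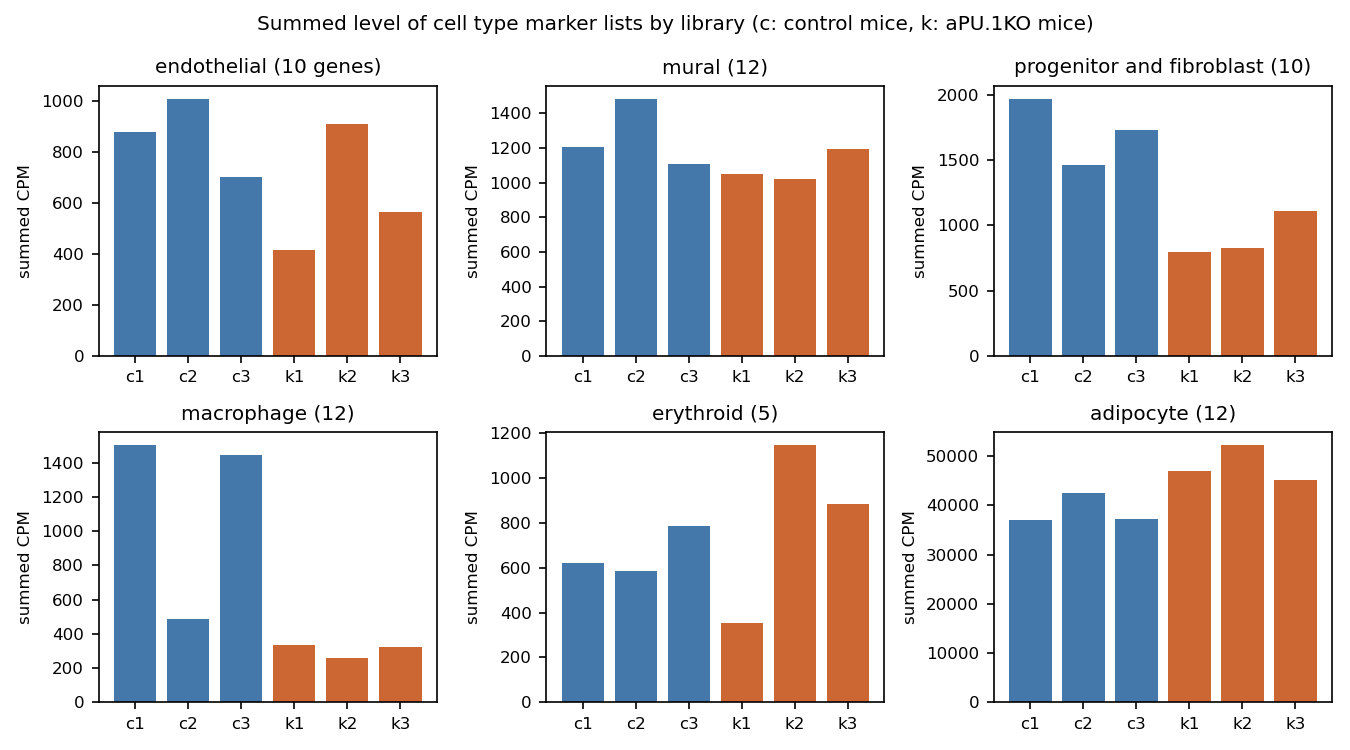
Summed CPM of the 10 endothelial genes and of 5 other cell type marker lists in each library (c1 to c3 control mice, k1 to k3 aPU.1KO mice). The endothelial sum runs from 415.5 in k1 to 1008 in c2, and the adipocyte sum is higher in every aPU.1KO library than in every control library.

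Mural cells, the pericytes and smooth muscle cells that wrap endothelium, had a median log2 fold change of -0.53 over 12 genes, and their sum overlapped, from 1106 to 1484 CPM in the control mice and from 1019 to 1193 CPM in the aPU.1KO mice. Pdgfrb, the receptor through which pericytes are recruited, was at 60.4, 50.7 and 57.2 CPM in the control mice and at 25.0, 30.2 and 31.9 CPM in the aPU.1KO mice. It fell by 0.95 on the log2 scale (SE 0.12, adjusted p = 0.0491 in edgeR), a call lost with any mouse but control mouse 2 left out (adjusted p from 0.0667 to 0.275 in edgeR). It was the only one of 12 mural genes called by edgeR, while DESeq2 called 5 lower, beside 8.46% of all genes, and 6 were lower without overlap, beside 15.5% of all genes, among them Notch3, Myh11, Abcc9 and Rgs5 with log2 fold changes of -0.99, -0.73, -0.70 and -0.70. Mcam, the most abundant gene of the list and one that endothelial cells share, was at 0.09, and it and the other 5 genes overlapped. Mcam gave 494.0, 615.2 and 505.6 CPM of the mural sum in the control mice and 582.5, 545.0 and 588.7 CPM in the aPU.1KO mice. Acta2 gave 145.6, 251.7 and 102.2 CPM of it in the control mice and 197.6, 47.6 and 216.9 CPM in the aPU.1KO mice. The overlap of the sum therefore rests in large part on Mcam and Acta2, and a sum without them was not taken.

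Other endothelial surface genes had about the same median as the members, and 1 of 23 tested was called. Cd93, a glycoprotein of endothelial and myeloid cells, was at 153 CPM, 122 CPM and 126 CPM in the control mice and at 49.5, 64.0 and 56.7 CPM in the aPU.1KO mice. It fell by 1.24 on the log2 scale (SE 0.13, adjusted p = 0.0323 in edgeR), with no overlap and little spread among the aPU.1KO mice. That call was lost with any mouse but control mouse 2 left out, at adjusted p from 0.0612 to 0.140 in edgeR. Vwf (von Willebrand factor) and Cd34 were lower in every aPU.1KO mouse as well, with log2 fold changes of -0.78 and -0.996, adjusted p = 0.0764 and 0.0853 in edgeR and 0.00080 and 0.0023 in DESeq2. The median of the list was -0.44 and all 23 were below 0. Without overlap were 4 of 23, a share near the 15.5% of all genes, and DESeq2 called 5, beside 8.46% of all genes called lower. Aqp1, a water channel and the most abundant gene of the list, had a log2 fold change of -0.50 (adjusted p = 0.262 in edgeR), and Nostrin and Tjp1, at -1.54 and -0.12, overlapped between the groups.

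The ligand list, which holds VEGF family members and angiopoietins as well as apelin and ligands of Notch and ephrin receptors, had values on both sides of 0. Vegfa, the main ligand of Kdr and Flt1, was at 170.2, 234.5 and 161.8 CPM in the control mice and at 331.6, 421.1 and 300.4 CPM in the aPU.1KO mice. No value of one group fell within the other, with a log2 fold change of 0.90 (SE 0.19, adjusted p = 0.0766 in edgeR and 0.000513 in DESeq2). Vegfb, a ligand of Flt1, was also higher without overlap, at 0.44 (adjusted p = 0.0856 in edgeR). Pgf, another ligand of Flt1, and Vegfd, a ligand of lymphatic VEGFR3, were lower without overlap, with log2 fold changes of -1.04 and -0.33 (adjusted p = 0.0786 and 0.0946 in edgeR). Over the whole list, 0 of 13 ligands tested were called by edgeR, 7 had an unadjusted p under 0.05, 2 higher and 5 lower, and DESeq2 called 2 higher and 3 lower. Of all genes tested, at an unadjusted p under 0.05 in edgeR 11.9% were higher and 13.7% lower, and DESeq2 called 3.97% higher and 8.46% lower. Without overlap 2 ligands were higher, beside 16.7% of all genes, and 4 lower, beside 15.5%.

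The angiopoietins, named here for their receptor Tek after their values were seen, differed by mouse. Angpt1, the activating ligand, was at 9.39, 2.98 and 12.9 CPM in the control mice and at 4.01, 25.0 and 3.55 CPM in the aPU.1KO mice, where mouse 2 was again the highest. Angpt2, which endothelial cells release and which can antagonise Tek, was at 7.78, 9.63 and 6.35 CPM in the control mice and at 3.61, 6.10 and 5.49 CPM in the aPU.1KO mice, with a log2 fold change of -0.64 (adjusted p = 0.171 in edgeR). Angpt4, at 0.606, 0.744 and 0.714 CPM in the control mice and at 0.305, 2.58 and 0.663 CPM in the aPU.1KO mice, had a log2 fold change of 0.80 (SE 0.71, adjusted p = 0.514 in edgeR). Here too aPU.1KO mouse 2 was the highest library. The values of Angpt2 did not overlap, whereas those of Angpt1 and Angpt4 did, and for Angpt1 the log2 fold change of 0.36 (SE 0.85, adjusted p = 0.816 in edgeR) became -1.17 without aPU.1KO mouse 2. That of Angpt4 became -0.48 without the same mouse.

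Of 13 co-receptor and signalling genes tested, Plxnd1, a semaphorin receptor of endothelium, was the only one called by edgeR, while DESeq2 called 7 lower, beside 8.46% of all genes. It was at 155 CPM, 161 CPM and 148 CPM in the control mice and at 105, 92.8 and 90.1 CPM in the aPU.1KO mice, and fell by 0.69 on the log2 scale (SE 0.09, adjusted p = 0.0491 in edgeR). With any mouse but control mouse 2 left out, its adjusted p from edgeR was 0.0781 to 0.313. Nrp2, Aplnr, Dok2 and Nrp1 had log2 fold changes of -1.16, -1.002, -2.06 and -0.36 with no overlap, and 7 of 13 were lower without overlap, beside the 15.5% of all genes. Several of these genes are also used outside endothelium: Nrp2 and Dok2, for example, are expressed by myeloid cells. Dok2 at 13.9, 5.43 and 14.3 CPM in the control mice had control mouse 2 as its lowest control, as had the macrophage sum. The part of macrophages in the value of Dok2 was not tested. Svep1, the most abundant, overlapped at -0.80.

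Transcription factors of endothelial cells had a median log2 fold change of -0.51 over 23 tested genes, with 0 called by edgeR. Of the 23, 9 were lower at an unadjusted p under 0.05, beside 13.7% of all genes, 5 were called lower by DESeq2, beside 8.46%, and 7 were lower without overlap, beside 15.5%. Klf2, a factor induced by blood flow, was at 33.2, 32.2 and 27.5 CPM in the control mice and at 17.0, 19.0 and 22.4 CPM in the aPU.1KO mice, a log2 fold change of -0.67 (adjusted p = 0.0753 in edgeR). Lmo2, Mef2c and Elk3 were lower without overlap as well, at -1.57, -0.94 and -0.66. Lmo2, at 16.4, 7.79 and 17.1 CPM in the control mice, and at 4.07, 5.02 and 4.78 CPM in the aPU.1KO mice, had control mouse 2 as its lowest control. The macrophage sum had the same lowest control, and its part in the value of Lmo2 was not tested. The ETS factors Erg, Ets1 and Fli1 were at -0.44, -0.54 and -0.56, and Foxo1 and Klf4 at 0.22 and -0.30.

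**Figure D5:**
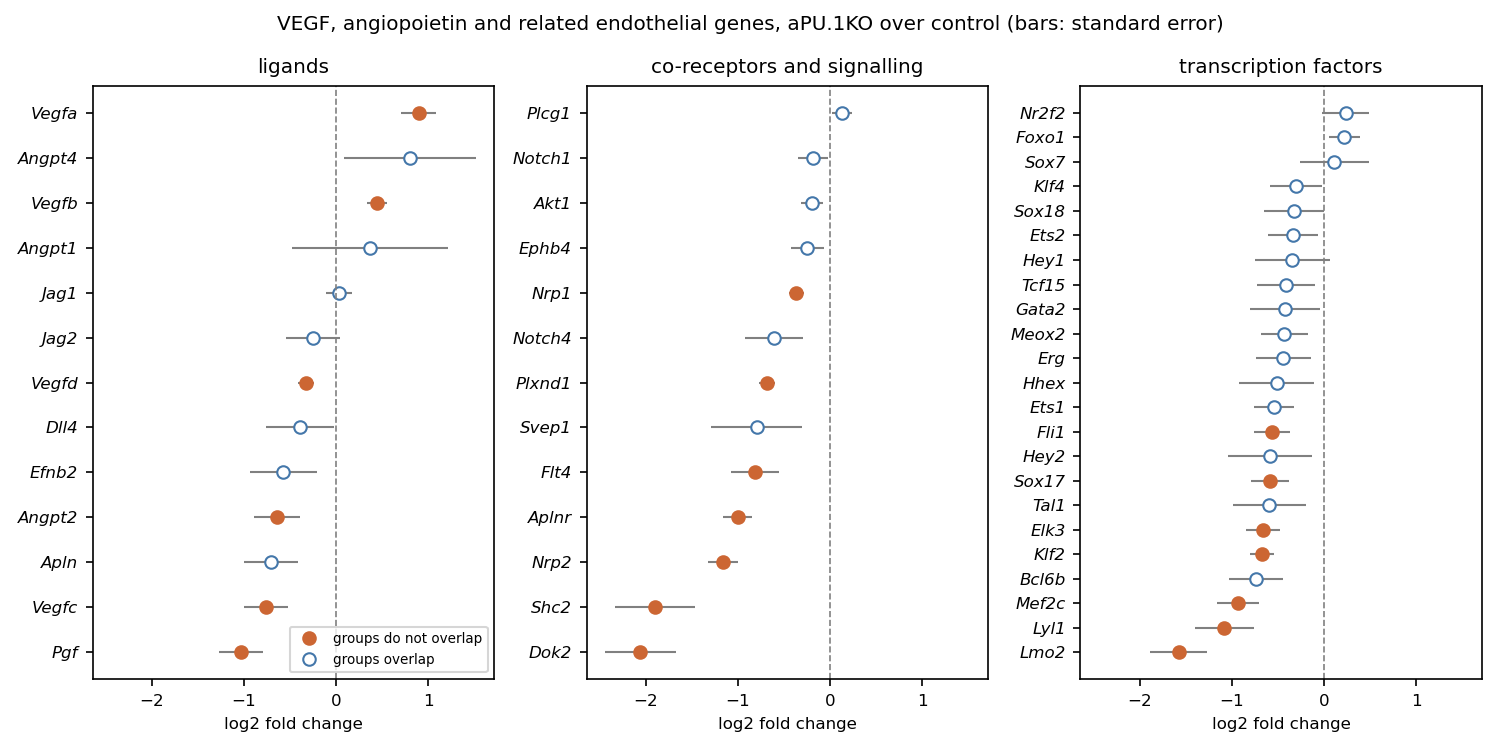
Log2 fold changes (aPU.1KO over control, bars for the standard error, edgeR) of ligands, co-receptors and signalling genes, and transcription factors of endothelium, with filled points where no aPU.1KO value lies within the control range. Vegfa and Vegfb are the ligands above 0 without overlap, at 0.90 and 0.44, and 7 of 13 co-receptor and signalling genes lie below 0 without overlap.

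Over 11 genes that mark the specialised capillaries of fat, 6 were above 0 and 5 below, and the median log2 fold change was 0.062, with Rgcc at 0.45 and Fabp4 at 0.44 higher without overlap (adjusted p = 0.0764 and 0.190 in edgeR), and 0 called by edgeR. By edgeR 2 were higher at an unadjusted p under 0.05, beside 11.9% of all genes, and DESeq2 called 2 higher, beside 3.97%. Fabp4, a fatty acid carrier, and Cd36, a fatty acid transporter at 0.10 and also without overlap, are among the most abundant RNAs of adipocytes as well. Also above 0 were Cav1, Aqp7 and Fabp5, at 0.16, 0.062 and 0.065, with control means of 3492, 249.0 and 213.0 CPM. The part of adipocytes in the values above 0, and so in the median, was not tested. Meox2 and Tcf15, factors of capillary endothelium, were at -0.43 and -0.41, and Gpihbp1, Btnl9 and Car4, also capillary genes, at -0.11, -0.11 and -0.025. These were the 5 genes below 0, and for each of them aPU.1KO mouse 1 was the lowest library and the groups overlapped. Arterial genes had a median of -0.55 with 0 of 10 called by edgeR and by DESeq2 and 3 lower at an unadjusted p under 0.05, beside 13.7% of all genes (Fbln5, Gja5 and Sox17, at -0.53, -0.93 and -0.58). These 3 and Gja4, at -0.74, were lower without overlap, beside 15.5% of all genes, and Sema3g, at -0.60, overlapped.

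Venous and activated endothelial genes had a median of -0.78 over 9 genes, with 0 called by edgeR, 3 lower at an unadjusted p under 0.05, beside 13.7% of all genes, and 3 called lower by DESeq2, beside 8.46%. Vcam1, an adhesion molecule for leukocytes, was at 43.7, 19.0 and 50.4 CPM in the control mice and at 11.3, 8.50 and 12.9 CPM in the aPU.1KO mice. Its log2 fold change was -1.79 (adjusted p = 0.0764 in edgeR), with the low control in mouse 2. Ackr1 and Selp were at -1.44 and -1.09 without overlap, and Lrg1 and Ephb4 were at -0.58 and -0.25 with overlap. Ackr1 was low, with 125, 19 and 39 counts in the control mice and 12, 13 and 7 in the aPU.1KO mice. Its exons also overlap those of Cadm3 by 361 bases on the same strand, so part of its count could belong to Cadm3. Of the genes on the lymphatic list that were tested, Pdpn and Flt4 (VEGFR3) were lower without overlap at -1.17 and -0.81, and Lyve1 was at -0.25. With Prox1 near 0 in every library, which cells gave these RNAs was not tested.

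The genes most like the members were found by Pearson's r over the 6 libraries with the mean of the members' standardised log2 CPM, a description over few points that share depth and scaling. The 5 nearest were Tmem200b, Tcf4, Clec1a, Arhgap27 and Meox2, with r from 0.9999 down to 0.995, beside r from 0.948 for Kdr to 0.991 for Esam among the members, which enter the mean themselves. Of these 5, Tcf4 was the most abundant, at 135.7, 140.6 and 117.3 CPM in the control mice and at 85.9, 136.7 and 104.0 CPM in the aPU.1KO mice. Clec1a, a lectin receptor, was at 8.91, 9.76 and 7.06 CPM in the control mice and at 4.17, 9.31 and 5.97 CPM in the aPU.1KO mice. Each of the 5 overlapped between the groups, with adjusted p from 0.337 to 0.475 in edgeR.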

How the data were processed

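RNA of the adipocyte fraction was measured in 6 libraries, 1 per mouse. Estimated counts were deposited by the authors, who had run Salmon (option validateMappings) and summed its transcripts to genes, and the submitters' processing notes also name FastQC and GRCm38. Versions are not given in the sources used here. The estimated counts are whole numbers and were not rounded further. Of 35122 Ensembl identifiers, 35031 matched a symbol in GENCODE M21 (GRCm38), and the rest held 0.0367% of the counts. Mice were numbered by label order within a group, since the labels give no replicate numbers.

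The comparison used the quasi-likelihood test of edgeR 4.0.16 in R 4.3.3, after filterByExpr and TMM scaling, with Benjamini-Hochberg adjustment over 13925 genes and a threshold of 0.05. The standard error was the absolute log2 fold change over the root of the F statistic. CPM was scaled by TMM, and likeness used log2 of CPM plus 0.1. DESeq2 1.42.0, limma-voom (limma 3.58.1), other scalings, filters and dispersions, thinning of control library 1 to 22770714 counts, and leaving out each mouse were alternatives. Total counts were 20550252 or more per library, and 3 mice per group limit what a single gene can show.

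The members and the other 17 lists (189 genes, 170 tested) were chosen with earlier results of these data known. Named genes are all members, Spi1, and from each other list the 4 tested genes with the smallest unadjusted p and the 2 with the highest mean CPM. For the lists of adipocytes, progenitors, macrophages, mesothelium, lymphocytes, platelets, red cells and liver, the text departs from this and gives mainly sums and counts. Also named are genes that define a cell type and are near 0, and the 5 genes most like the members. Erg, Ets1, Fli1, the angiopoietins, Cd163, Mertk, Gpihbp1, Btnl9, Car4, Cav1, Fabp5, Aqp7, Gja4, Acta2 and Lep were named after their values were seen. Figures were drawn with matplotlib 3.10.9.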

Additional observations from a re-analysis of the deposited data

How the results depend on the processing

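None of the 10 members was called under any of the 15 alternatives. Their median log2 fold change, -0.45 with all mice, ran from -0.85 to -0.21 with each mouse left out, and under the other alternatives all 10 stayed below 0. The count of members without overlap, 0 with all mice, was 0 to 10 with each mouse left out, at 5 where control mouse 3 was left out and 10 where aPU.1KO mouse 2 was. Over all genes, edgeR called 33, against 5 with at least 10 counts in every library, 146 with no filter, 1833 by DESeq2 and 0 (without control mouse 1) to 1193 (without control mouse 2) with each mouse left out. Of the genes on the other 17 lists, 7 were called, against 0 with at least 10 counts in every library, 13 with no filter, 67 by DESeq2 and 0 to 40 (without control mouse 2) with each mouse left out. Cd93, Plxnd1, Pdgfrb and Mrc1 kept their direction throughout, but their calls were lost with at least 10 counts in every library and without any single mouse other than control mouse 2, and those of Plxnd1 and Pdgfrb also with robust dispersion (adjusted p = 0.0533 and 0.0502). The median over all genes, 0.014, was 0.0011 with RLE factors, -0.022 with no filter, -0.016 by DESeq2, 0.0061 by limma-voom, 0.0057 with control library 1 thinned and between -0.00089 and 0.0076 with each mouse left out. With each mouse left out, Kdr ran from -0.65 to 0.056 and Emcn from -0.91 to 0.0060, both reversed without aPU.1KO mouse 1, and Tjp1 from -0.25 to 0.022 and Lyve1 from -0.94 to 0.41, both reversed without control mouse 2, and Angpt1, at 0.36 with all mice, from -1.17 without aPU.1KO mouse 2 to 0.79, with -0.11 by limma-voom, and Angpt4, at 0.80 with all mice, from -0.48 without aPU.1KO mouse 2 to 1.24. Several of the other genes named also changed sign with a mouse left out. Gpihbp1 ran from -0.52 to 0.19, Car4 from -0.50 to 0.23, Btnl9 from -0.61 to 0.11 and Cd163 from -0.18 to 1.08. Mertk ran from -0.076 to 0.22, Acta2 from -0.44 to 0.32, Fabp5 from -0.094 to 0.16 and Aqp7 from -0.011 to 0.12. The cause was not tested. The study's text describes the controls as littermates of the knockout mice, but the labels assign no mouse to a litter. No paired analysis was run, and litter was left out of every fit.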
